A study of Mus musculus with 5 samples.

Results

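The RNA levels of 10 genes of phagocytic recognition were followed in astrocyte libraries from the mouse amygdala: the receptors Megf10, Mertk, Axl and Tyro3, the adaptor Gulp1, the integrin subunits Itgav and Itgb5, and the bridging ligands Gas6, Pros1 and Mfge8. These genes were chosen by symbol, and all 10 were found among the 35976 genes of the count table. All libraries came from mice of the genotype Ccr2::CreERT2/+;DTR/+, in which a tamoxifen-activated Cre under control of the Ccr2 locus permits expression of the diphtheria toxin receptor. Every animal carried both alleles and received tamoxifen, 18 days of tube restraint, and fear conditioning with extinction; the groups differed in receiving saline or DTx (diphtheria toxin). Cells of the papain-digested amygdala were selected with anti-ACSA-2 beads, which bind an astrocyte surface protein, and each library was made from 5 ng of RNA. The labels give no age or sex. The design text gives n = 3 for each arm, and the third saline sample was not analysed here. Values are from 2 saline libraries and 3 DTx-labelled libraries (5A, 6A and 7A), and the question was whether removal of CCR2-expressing monocytes during stress was accompanied by a difference in these astrocyte genes.

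Astrocytes clear synaptic material, debris and dying cells through receptors that recognise phosphatidylserine on the target surface. MEGF10, the mammalian relative of Drosophila Draper and nematode CED-1, works with the adaptor GULP1, the relative of CED-6. TYRO3, AXL and MERTK are the TAM receptor tyrosine kinases, which do not bind the lipid themselves but are bridged to it by GAS6 and protein S (Pros1). MFGE8 bridges phosphatidylserine to integrins that contain the alpha-v chain (Itgav), such as the one paired with beta-5 (Itgb5).

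The libraries held between 15961220 and 23720299 counts and between 20409 and 21800 genes with a count. Ccr2 had 0 counts in both saline libraries and 54, 4 and 4 counts in libraries 5A, 6A and 7A, opposite in direction to the label. These few counts in libraries selected for astrocytes do not measure monocytes, and the depletion named by the label was not tested. Xist stood at 173 and 129 CPM (counts-per-million, scaled by the trimmed mean of M values) in saline and at 0.159, 0 and 0 CPM in the DTx-labelled libraries. The sum of 4 genes of the Y chromosome came to 0.185 and 0.0897 CPM with saline, against 185 to 201 CPM with the DTx label. Treatment label and sex-chromosome content therefore cannot be told apart in any comparison below. The 12 astrocyte markers had a summed level of 26050 and 27160 CPM in saline, against 26370 to 30380 CPM in the DTx-labelled libraries. All 12 passed the count filter, as did all listed markers of microglia, neurons and oligodendrocytes, so passing it does not bear on the label. The 8 oligodendrocyte markers summed to more than the astrocyte markers in every library. They stood at 58830 and 90610 CPM in saline and at 42050, 43330 and 88580 CPM across libraries 5A, 6A and 7A.

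Mfge8, Axl and Gas6 were the most abundant transcripts of the set in 5 of 5 libraries, and Gulp1 the least abundant. Levels per length (CPM per kilobase of exon, so that genes can be compared) spanned 18.9-fold from the highest to the lowest. Mfge8 was highest at a mean of 84.5 CPM per kilobase over the 5 libraries, above 97.2% of the 14374 tested genes with a known length, whose median was 3.51. Axl followed at 43.2 and Gas6 at 39.3. Itgav, Pros1, Itgb5, Megf10 and Tyro3 formed a middle group at 17.6, 15.5, 14.8, 13.8 and 11.8 CPM per kilobase, then came Mertk at 8.9 and Gulp1 at 4.48, which was still above 55.7% of genes. Neighbours in this order separated without overlap at 3 places only: Mfge8 above Axl, Gas6 above Itgav, and Mertk above Gulp1, each in 5 of 5 libraries. Axl exceeded Gas6 in 4 of 5 libraries, Tyro3 exceeded Mertk in 3 of 5, and the ranges of the middle group overlapped from each gene to the next.

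**Figure D1:**
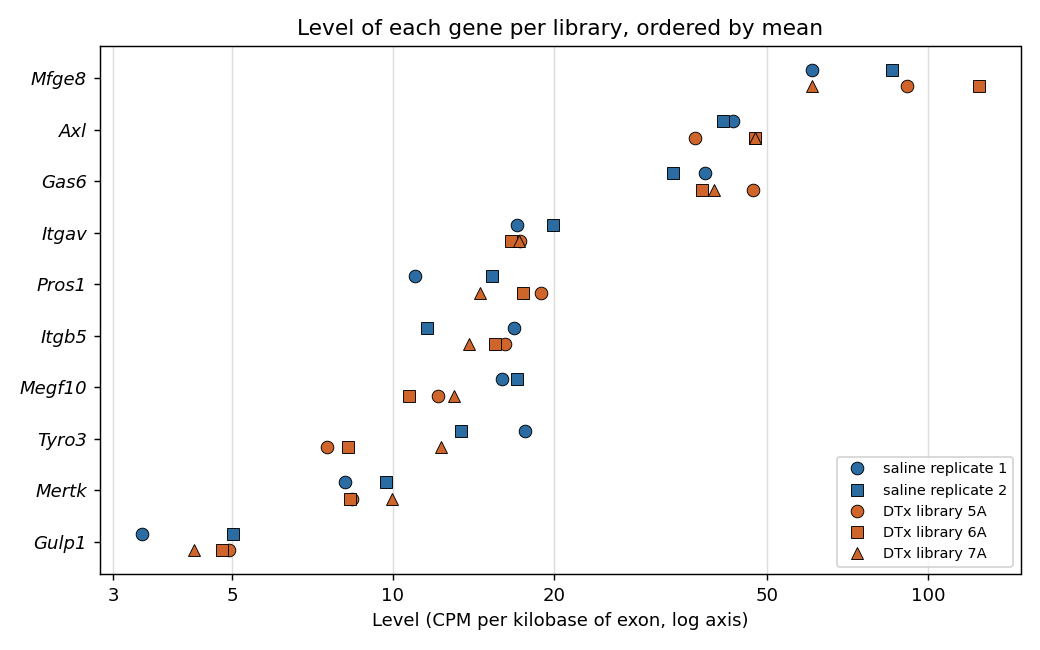
Level of each gene in CPM per kilobase of exon (log axis), with a point for each library, saline in blue and DTx-labelled in orange. Mfge8 lies highest between 60.7 and 124 and Gulp1 lowest between 3.39 and 5.02; for Megf10 and Tyro3 the blue and orange points do not overlap.

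None of the 10 genes passed the threshold between the groups, with an adjusted p of 0.742 or more in edgeR's quasi-likelihood test. Over all 15532 genes tested the same threshold called 5, or 0.0322%, all of them on chromosome X or Y; outside these chromosomes the smallest adjusted p was 0.611. Of the 10 genes 0 were called by DESeq2 (0.729% of all genes), limma-voom (0.0322%) or the edgeR likelihood ratio test (0.644%). At an unadjusted p under 0.05 there were 2 of 10, both lower in the DTx-labelled libraries (Megf10 and Tyro3), against 6.68% of all genes in either direction, 4.49% higher and 2.19% lower. The same 2 of 10 were the genes whose groups did not overlap with the DTx-labelled libraries lower, against 8.99% of all genes. No member lay wholly higher in the DTx-labelled libraries, against 12.1% of all genes. The median log2 fold change of the 10 was 0.08, beside 0.00 (0.00238) for all genes, with 6 genes higher and 4 lower by sign against 7822 and 7710 of all genes.

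**Figure D2:**
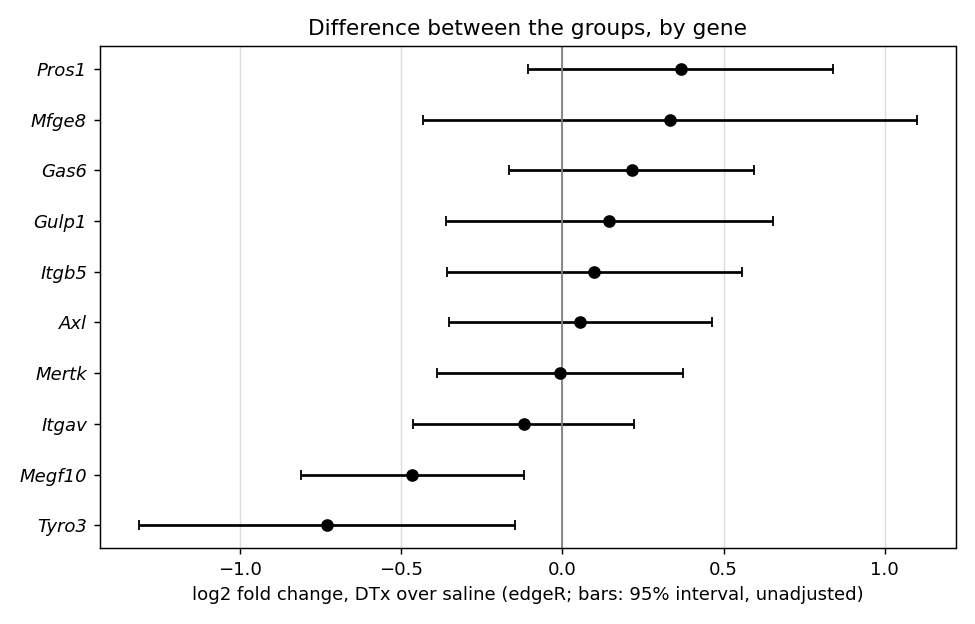
Log2 fold change of each gene, DTx-labelled over saline, from edgeR, with its unadjusted 95% interval. The intervals of Megf10 and Tyro3 lie below 0 before adjustment and those of the other 8 genes include 0.

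Megf10, the engulfment receptor (GRCm38 chromosome 18, 57133090 to 57297467), stood at 123 and 131 CPM in saline and at 93.7, 82.5 and 100 CPM across libraries 5A, 6A and 7A. All 3 DTx-labelled libraries lay below both saline libraries, and each group was narrow, with means of 127 ± 5.68 (SD, n = 2) and 92.2 ± 9.04 CPM (SD, n = 3). The log2 fold change was -0.47 ± 0.15 (SE; edgeR adjusted p = 0.742), a level 0.724 times that of saline with an unadjusted 95% interval of 0.57 to 0.921. In these bulk libraries, fewer cells that express a gene and less RNA per cell cannot be told apart. Of the 12 astrocyte markers 5 were higher and 7 lower by sign, and 0 were called by edgeR. Without overlap 1 was higher and 2 were lower, beside 12.1% and 8.99% of all genes. The median log2 fold change of the list was -0.01 (-0.0138). Atp1b2, the gene of the ACSA-2 antigen used for the selection, stood at 5476 and 5679 CPM in saline and at 4328, 4938 and 4749 CPM, also lower without overlap (log2 fold change -0.26, edgeR adjusted p = 0.805). The water channel gene Aqp4 was likewise lower, at 775 and 893 CPM against 638, 587 and 771 CPM (edgeR adjusted p = 0.778). Library 7A was close to saline replicate 1. The glutamate transporter gene Slc1a3 overlapped, at 1671 and 2345 CPM against 4024, 5233 and 2075 CPM. Aldh1l1, Slc1a2, Slc4a4, Aldoc and Sox9 also overlapped, with log2 fold changes of -0.006, -0.024, -0.022, -0.054 and 0.078. The same held for Gja1, Ntsr2 and Fgfr3, at 0.14, 0.315 and -0.238. Gfap, the intermediate filament raised in reactive astrocytes, stood at 290 and 741 CPM in saline and at 1079, 1132 and 1609 CPM (log2 fold change 1.3, edgeR adjusted p = 0.742). The part of these differences in the Megf10 value was not tested. With any 1 library left out the Megf10 log2 fold change was between -0.53 and -0.40. Gulp1, its cytoplasmic adaptor (chromosome 1, 44551511 to 44796838), overlapped between the groups. It stood at 12.7 and 18.9 CPM in saline and at 18.6, 18.0 and 16.0 CPM in the DTx-labelled libraries. Its lowest and highest values were both from saline. Its log2 fold change was 0.15 ± 0.21 (SE; edgeR adjusted p = 0.894), with a 95% interval of -0.36 to 0.65. The sign turned to -0.11 without saline replicate 1, and the value was 0.46 without saline replicate 2.

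Among the TAM receptors, Tyro3 stood lower in the DTx-labelled libraries without overlap, and the values of Axl and Mertk overlapped. Tyro3, the TAM member prominent in neurons and myelinating glia (chromosome 2, 119797733 to 119818104), was at 109 and 83.0 CPM in saline and at 46.6, 51.0 and 76.1 CPM across libraries 5A, 6A and 7A. Libraries 5A and 6A were far below saline, and library 7A was close to saline replicate 2. The log2 fold change was -0.73 ± 0.25 (SE; edgeR adjusted p = 0.742), a level 0.602 times that of saline with an unadjusted 95% interval of 0.402 to 0.903. It was -0.98 without library 7A (adjusted p = 0.102) and -0.52 without saline replicate 1 (adjusted p = 0.834).

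Axl, the TAM receptor that responds to inflammation in many cell types (chromosome 7, 25757273 to 25788705), was at 217 and 208 CPM in saline and at 185, 239 and 239 CPM in the DTx-labelled libraries. The DTx-labelled libraries lay on both sides of saline. Its log2 fold change was 0.06 ± 0.17 (SE; edgeR adjusted p = 0.951), and the 95% interval of the fold was 0.783 to 1.38. The value was 0.17 without library 5A, -0.007 without library 6A and -0.003 without library 7A. Mertk, which mediates uptake of apoptotic cells and synapses (chromosome 2, 128698956 to 128802894), was at 35.3 and 42.1 CPM in saline and at 36.4, 36.0 and 43.1 CPM in the DTx-labelled libraries. Both groups covered almost the same range. Its log2 fold change was -0.01 ± 0.16 (SE; edgeR adjusted p = 0.993), with a fold interval of 0.764 to 1.3, and its sign was not fixed, turning positive with upper-quartile scaling, with library totals and without saline replicate 2 (0.13), library 5A (0.03) or library 6A (0.04), while it was -0.13 without saline replicate 1 and -0.10 without library 7A.

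The RefSeq promoter windows (GRCm38.p6; 250 bases before to 50 after the annotated start) of the 3 TAM receptors are shown because these genes encode closely related receptors whose values are set against each other here. Capitals mark GC boxes (GGGCGG on either strand), and runs of capitals longer than 6 are overlapping matches. Tyro3 lies at chr2:119799264-119799563 on the plus strand, Axl at chr7:25788684-25788983 on the minus strand and Mertk at chr2:128698665-128698964 on the plus strand.
Tyro3: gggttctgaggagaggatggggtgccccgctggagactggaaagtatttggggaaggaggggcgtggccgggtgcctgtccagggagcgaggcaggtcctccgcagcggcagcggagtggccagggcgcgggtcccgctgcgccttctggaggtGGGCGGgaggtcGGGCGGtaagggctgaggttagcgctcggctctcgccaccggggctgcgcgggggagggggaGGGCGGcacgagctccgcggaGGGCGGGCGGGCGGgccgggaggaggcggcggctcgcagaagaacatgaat
Axl: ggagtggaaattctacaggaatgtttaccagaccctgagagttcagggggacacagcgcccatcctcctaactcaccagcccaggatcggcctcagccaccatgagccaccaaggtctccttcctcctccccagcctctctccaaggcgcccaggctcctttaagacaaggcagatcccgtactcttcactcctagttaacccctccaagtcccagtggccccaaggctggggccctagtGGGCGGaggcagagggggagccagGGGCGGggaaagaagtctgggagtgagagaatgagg
Mertk: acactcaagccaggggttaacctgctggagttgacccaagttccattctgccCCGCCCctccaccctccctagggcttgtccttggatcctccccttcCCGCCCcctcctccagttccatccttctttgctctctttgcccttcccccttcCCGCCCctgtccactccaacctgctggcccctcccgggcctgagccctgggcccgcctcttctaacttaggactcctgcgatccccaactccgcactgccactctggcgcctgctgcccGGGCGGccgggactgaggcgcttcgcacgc
GC content was 73.3% in the Tyro3 window, 60.3% in that of Axl and 66.0% in that of Mertk, beside a median of 52.7% over all 32851 windows. Windows were found for 9 of the 10 genes, and a GC box was present in 9 of 9, against 35.7% of all windows. The letters CCAAT (in 37.4% of all windows), CACGTG (7.15%) and TGANTCA, an AP-1 motif (7.81%), were in none of the 9 windows on either strand. A gamma-activated site, TTCNNNGAA (8.3% of all windows), was present in that of Pros1 alone. These matches describe the letters of the windows and were not tested against the RNA levels.

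Within each library the TAM receptors can be set against each other without the scaling between libraries. Axl made up 62.6% and 64.1% of the summed level per length of the 3 receptors in saline, and 69.8%, 74.2% and 68.1% in libraries 5A, 6A and 7A. The groups did not overlap, with means of 63.4% ± 1.07 (SD, n = 2) and 70.7% ± 3.16 (SD, n = 3). The difference of 7.32 percentage points had a two-sided exact permutation p of 0.1, which is the smallest that the 10 regroupings of 5 libraries allow. Tyro3 took 25.6% and 20.8% in saline and 14.3%, 12.8% and 17.6% in the DTx-labelled libraries, also without overlap, a difference of -8.27 points. The 3 shares add up to the same total in each library, so the Axl and Tyro3 differences are not independent results. The level of Axl itself differed by 0.06 on the log2 scale. Mertk took 11.8% and 15.1% in saline and a mean of 14.4% ± 1.5 (SD, n = 3) under the DTx label, and its groups overlapped. Axl was the leading TAM receptor per length in 5 of 5 libraries.

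**Figure D3:**
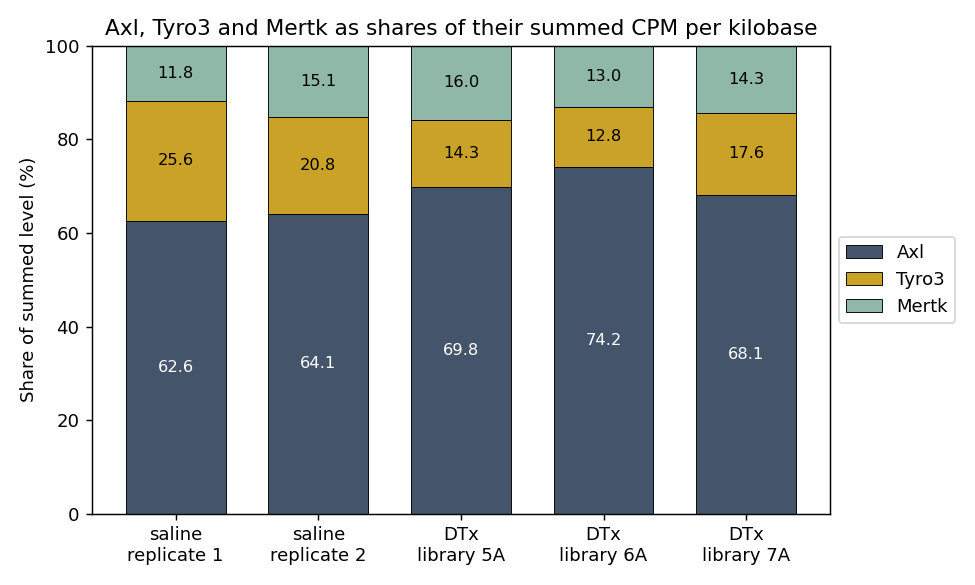
Share of Axl, Tyro3 and Mertk in their summed CPM per kilobase, with 1 bar for each library. The Tyro3 share is 20.8% or more in both saline libraries and 17.6% or less in the 3 DTx-labelled libraries.

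The 3 bridging ligands were each higher by sign in the DTx-labelled libraries, and the values of the groups overlapped for all 3. Gas6, the ligand of all TAM receptors (chromosome 8, 13465374 to 13494490), was at 97.5 and 85.1 CPM in saline and at 120, 96.5 and 101 CPM across libraries 5A, 6A and 7A. Only library 6A, just below saline replicate 1, kept the groups from separating. The log2 fold change was 0.22 ± 0.16 (SE; edgeR adjusted p = 0.802), with a fold interval of 0.892 to 1.51. Leaving out library 5A gave 0.11, and leaving out saline replicate 1 or 2 gave 0.31 or 0.12. Pros1, which encodes protein S, a ligand of TYRO3 and MERTK and an anticoagulant cofactor (chromosome 16, 62854307 to 62929346), was at 45.0 and 62.6 CPM in saline and at 77.4, 71.5 and 59.4 CPM. Library 7A lay between the saline libraries. The log2 fold change was 0.37 ± 0.20 (SE; edgeR adjusted p = 0.772), with a fold interval of 0.929 to 1.79, and leaving out saline replicate 1 or 2 gave 0.145 or 0.63. Per length, Gas6 exceeded Pros1 and made up 77.7% and 68.6% of the pair in saline and 71.4%, 68.4% and 73.2% in the DTx-labelled libraries. The difference was -2.11 percentage points (two-sided exact permutation p = 0.6) and became 2.44 without saline replicate 1.

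Mfge8, the bridge to alpha-v integrins (chromosome 7, 79133768 to 79149060), had the largest standard error of the 10 genes. It was at 285 and 401 CPM in saline and at 428, 583 and 285 CPM across libraries 5A, 6A and 7A. Library 7A equalled the lower saline library, and the DTx-labelled libraries had an SD of 149 CPM around a mean of 432. The log2 fold change was 0.33 ± 0.32 (SE; edgeR adjusted p = 0.831), with a fold interval of 0.74 to 2.14. It was 0.05 without library 6A, 0.10 (0.105) without saline replicate 1, 0.56 without library 7A and 0.60 without saline replicate 2, so single libraries set its size.

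The integrin chains that receive MFGE8 overlapped between the groups. Itgav, the alpha-v chain (chromosome 2, 83724397 to 83806916), was at 183 and 214 CPM in saline and at 185, 179 and 185 CPM in the DTx-labelled libraries. The DTx-labelled libraries agreed closely, with a mean of 183 ± 3.76 CPM (SD, n = 3), and saline replicate 1 lay among them. Its log2 fold change was -0.12 ± 0.14 (SE; edgeR adjusted p = 0.868), with a fold interval of 0.725 to 1.17. Leaving out saline replicate 1 or 2 gave -0.23 or -0.004. Itgb5, the beta-5 chain (chromosome 16, 33829665 to 33949338), was at 59.7 and 41.1 CPM in saline and at 57.6, 55.1 and 49.3 CPM in the DTx-labelled libraries, all of which lay between the saline libraries. Its log2 fold change was 0.10 ± 0.19 (SE; edgeR adjusted p = 0.922), with a fold interval of 0.78 to 1.47. Leaving out saline replicate 1 gave 0.39, and leaving out saline replicate 2 gave -0.145.

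Markers of other cells differed among the same libraries, and their part in these values was not tested. All 8 oligodendrocyte markers were lower by sign in the DTx-labelled libraries, with a median log2 fold change of -0.47, and their summed level was lowest in libraries 5A and 6A, the libraries with the least Tyro3. Library 7A and saline replicate 2 had the most of these markers (88580 and 90610 CPM). Tyro3 did not keep this order, as it was highest in saline replicate 1 (109 CPM), where these markers summed to 58830 CPM. Of 8 oligodendrocyte precursor markers 3 were higher and 5 lower by sign. Olig2 and Sox10, transcription factors of the lineage, were lower without overlap (log2 fold changes of -0.65 and -0.79), and Pdgfra, Neu4 and Cspg5 stood at 0.13, 0.09 and 0.02 (edgeR adjusted p of 0.742 or more for each). With the mean of the oligodendrocyte markers as a covariate, the log2 fold change of Tyro3 was -0.60 ± 0.25 and that of Megf10 -0.38 ± 0.16 (SE), both with an edgeR adjusted p of 0.884.

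All 12 microglia markers were higher by sign, with a median log2 fold change of 1.0. Their summed levels were 107 and 266 CPM in saline, against 455, 326 and 263 CPM across libraries 5A, 6A and 7A. The sum was lowest in saline replicate 1, which had the most Tyro3, and highest in library 5A, which had the least. Of 10 monocyte and border macrophage markers, 7 were tested and all 7 were higher by sign. Their summed level was 24.4 and 34.5 CPM in saline, against 221, 27.4 and 81.2 CPM across libraries 5A, 6A and 7A. When the mean of the microglia markers entered the fit, the log2 value of Megf10 was -0.49 ± 0.19 and that of Tyro3 -0.30 ± 0.24 (SE). The other 8 genes ranged from -0.24 (Itgav) to 0.35 (Itgb5), with an edgeR adjusted p of 0.999 for each of the 10. This covariate (mean log2 CPM of the markers) was 2.54 in saline replicate 1 and 3.91 to 4.76 in the other libraries. It therefore largely marked saline replicate 1, and the fit cannot tell microglia content from other traits of that library. In none of the cell type lists was a marker at 0 in all libraries. Neuron markers had a median of 0.55 with 8 of 10 higher by sign, and ependymal and choroid markers were high in saline replicate 1 (173 CPM) and library 5A (89.0 CPM) against 15.7 to 18.8 CPM in the other 3 libraries. Summed pericyte markers (182 to 450 CPM), endothelial markers (15.1 to 28.0 CPM) and fibroblast markers (35.9 to 63.7 CPM) overlapped between the groups.

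**Figure D4:**
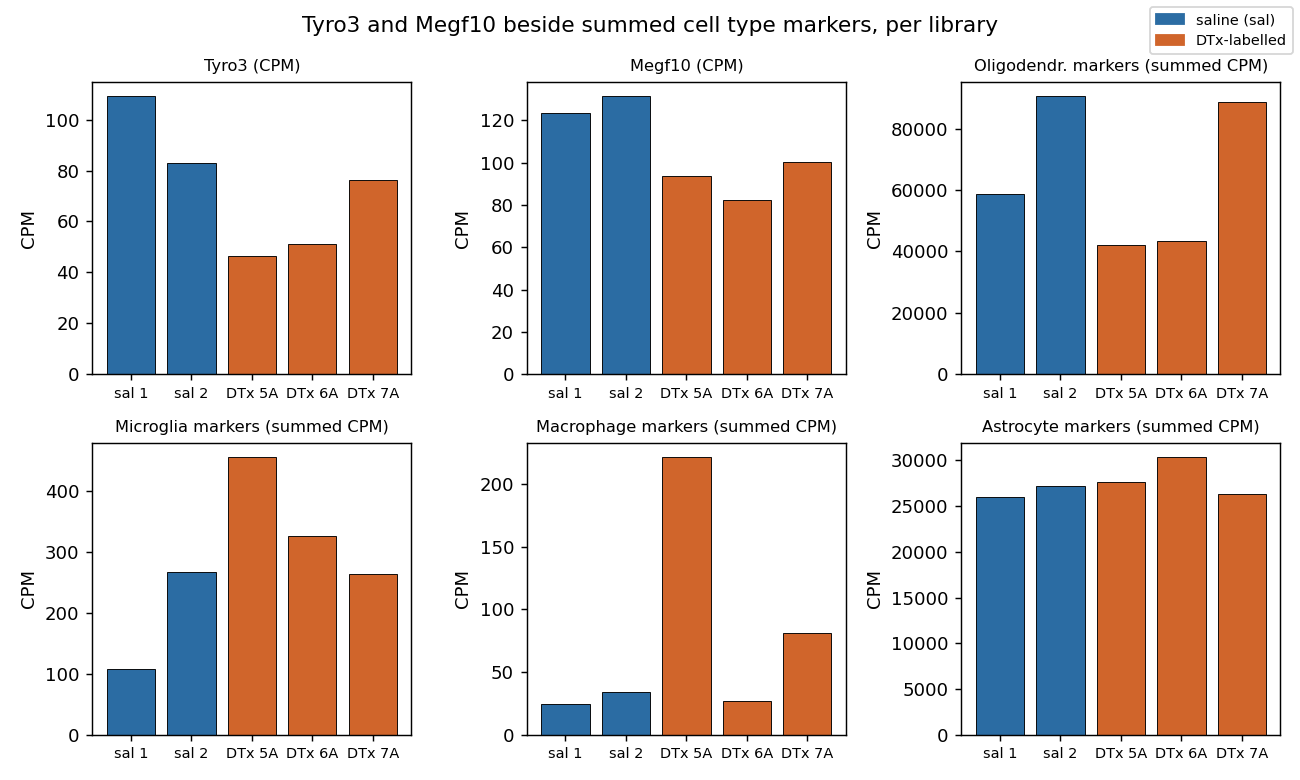
Tyro3, Megf10 and the summed markers of 4 cell types in each library, in CPM on axes that start at 0. Tyro3 and the oligodendrocyte markers are both lowest in libraries 5A and 6A. Tyro3 is highest in saline replicate 1, where microglia markers are lowest and oligodendrocyte markers are below those of library 7A. Megf10, like Tyro3, is lower in all 3 DTx-labelled libraries.

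Genes that act beside the receptors were read from 5 lists chosen by function, and edgeR called 0 genes in each. DESeq2, which called 0.729% of all genes, called 1 of them, Cd14, and limma-voom and the likelihood ratio test called 0. The counts below stand beside the 6.68% of all genes with an unadjusted p under 0.05 and the near-equal split of all genes by sign. Of 16 genes of the engulfment machinery, which link receptors to the actin cytoskeleton and to lipid handling, 0 had an unadjusted p under 0.05, with 6 higher and 10 lower by sign and a median log2 fold change of -0.08. Elmo2, part of the RAC activator that acts downstream of engulfment receptors, was at 357 and 312 CPM in saline and at 230, 272 and 298 CPM in the DTx-labelled libraries (log2 fold change -0.33, edgeR adjusted p = 0.772). Arhgef6, a RAC and CDC42 exchange factor, was at 5.63 and 5.87 CPM in saline and at 6.97 to 9.25 CPM (0.45, edgeR adjusted p = 0.768). The lipid transporter Abca7 had a log2 fold change of -0.47 (-0.475) and the exchange factor Trio of 0.34, with overlapping groups.

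Of 20 other phagocytic receptors 18 were tested and 2 (Cd14 and Timd4) had an unadjusted p under 0.05, both higher. The list had a median of 0.14 on the log2 scale. Cd14, a receptor of myeloid cells, was at 2.31 and 3.59 CPM in saline and at 32.9, 4.42 and 13.7 CPM across libraries 5A, 6A and 7A (log2 fold change 2.54 ± 0.88, SE; edgeR adjusted p = 0.742, DESeq2 adjusted p = 0.0428). Timd4, the phosphatidylserine receptor TIM-4 of resident macrophages, was at 0.139 and 0.135 CPM in saline and at 2.06, 0.249 and 0.627 CPM. It passed the count filter only through libraries 5A and 7A. Its direction was therefore set by that filter, and its p is no evidence of a difference. Trem2, a microglial lipid receptor that is also in the microglia list, was at 1.71 and 4.39 CPM and at 9.04, 6.59 and 4.39 CPM, and Ager at 0.97 and 0.807 CPM and at 3.75, 1.62 and 1.31 CPM. For all 4 genes library 5A was highest, which was also the library with the most microglia and macrophage markers.

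Of 17 genes of eat-me and do-not-eat-me signals 1 was higher and 1 lower at an unadjusted p under 0.05, with a median log2 fold change of 0.00 (-0.00286). C1qc, a chain of the complement opsonin C1q that is also in the microglia list, was at 13.4 and 31.2 CPM in saline and at 76.0, 37.8 and 40.8 CPM, and C1qa and C1qb likewise did not overlap between the groups (log2 fold changes of 1.49 and 1.17, edgeR adjusted p = 0.764 for both). Atp11a, a flippase that keeps phosphatidylserine inside the membrane, was at 76.8 and 53.5 CPM in saline and at 38.1, 33.5 and 54.3 CPM (log2 fold change -0.63, edgeR adjusted p = 0.745). Its groups overlapped through library 7A.

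Of 21 phagosome and lysosome genes 1 had an unadjusted p under 0.05. It was Tfeb, the regulator of lysosomal genes, at 35.9 and 23.0 CPM in saline and at 11.2, 11.8 and 23.8 CPM in the DTx-labelled libraries (log2 fold change -0.92 ± 0.38, SE; edgeR adjusted p = 0.745). Libraries 5A and 6A again lay below the other 3. Npc1, which exports cholesterol from lysosomes, had the same arrangement, at 142 and 169 CPM in saline and at 88.4, 96.2 and 145 CPM. Lipa, the lysosomal acid lipase, had a log2 fold change of -0.31 with overlapping groups, and the list's median was 0.07.

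Gas6 and protein S are active only after vitamin K-dependent carboxylation, and the TAM receptors can be cut from the cell surface by ADAM proteases. Of 6 genes of these steps 1 had an unadjusted p under 0.05, 5 of 6 were lower by sign (7710 of 15532 over all genes), and the median log2 fold change was -0.15. Adam10, a sheddase, was at 147 and 140 CPM in saline and at 102, 101 and 114 CPM in the DTx-labelled libraries, with a log2 fold change of -0.44 ± 0.14 (SE; edgeR adjusted p = 0.742). The groups did not overlap, and both were narrow. Aifm2, a vitamin K reductase, was at 19.4 and 19.3 CPM in saline and at 13.7 to 17.9 CPM (edgeR adjusted p = 0.789), while Adam17 and Vkorc1l1 overlapped between the groups with log2 fold changes of -0.21 and -0.10 (-0.095).

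The genes most like Megf10, Mertk and Axl over the 5 libraries were those with the smallest root mean square difference in centred log2 CPM, among 8966 genes with a mean of at least 10 CPM. For Megf10 they were Tnfrsf19, at 124 (123.7) and 123.5 CPM in saline and at 91.6, 84.0 and 97.1 CPM under the DTx label, and Cdh20, with differences of 0.04 and 0.0443. For Mertk they were Mcm4, Zfp160 and Mrpl40 (0.0215 to 0.0219), and for Axl they were Bap1, Fam214b and Sec14l1 (0.0277 to 0.0307). The measure describes the arrangement of values over these 5 libraries only.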

How the data were processed

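RNA sequencing libraries of ACSA-2-selected amygdala astrocytes were analysed: 2 saline and 3 DTx. The authors deposited raw read counts per gene, 1 column per library. The submitters' notes on processing name STAR 2.7.5c and featureCounts 2.0.1, with fastp 0.23.2 for the reads, and the builds GRCm38 and mm10. For settings, gene annotation and use of strand, the sources used here say nothing. Columns marked Ctrl were matched to saline by word and number, and DTX columns to the group only. The table has 1 more column of per-sample values, also marked Ctrl, that no step used. Its number matched no sample label used here. The numbers of the DTX columns match no label either, but these columns were used by group, so the 2 arms were not treated alike.

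All genes were fitted together with edgeR 4.0.16 in R 4.3.3 (TMM scaling, filterByExpr with minimum count 10, robust quasi-likelihood F test with bias-adjusted dispersions). Benjamini-Hochberg adjustment ran over all 15532 genes tested, and the threshold was 0.05. The test was also run on simulated counts whose means and dispersions came from these data, and its outcome is not reported here. The 95% intervals come from the same fit. Log2 CPM used a prior count of 2. The lengths are union exon lengths of GENCODE M21 (GRCm38), which may not be the annotation behind the counts. Exons of Itgav and Gas6 share 634 and 34 bases with other annotated genes, and without knowledge of strand their counts carry that uncertainty. No 2 libraries agreed within sampling noise (chi-square per degree of freedom at least 14.25). By this measure libraries 5A and 6A were closest to each other, and library 7A was closer to saline replicate 2 (17.68) than to 5A or 6A (60.74 and 58.36). The labels do not tie each library to an animal of its own, so p-values measure the spread between libraries. With counts of 276 or more per gene and library, counting error was small for the 10 genes.

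The 10 genes, the gene lists and the tests were chosen with earlier results of these data known. All 10 genes are named, and in each functional list the 4 genes with the smallest unadjusted p. For Megf10, Mertk and Axl the 3 genes with the most similar values are named. From these choices 2 genes are not reported here. Genes named from the marker lists were named after their values were seen. Alternatives were other scalings and filters, DESeq2 1.42.0, limma-voom (limma 3.58.1), the edgeR likelihood ratio test, and each library left out. The covariate fits were added after seeing the data.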

Additional observations from a re-analysis of the deposited data

How the results depend on the processing

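Under 15 alternatives no gene of the set passed the threshold, and the smallest adjusted p was 0.102 (Tyro3, without library 7A). Megf10 and Tyro3 were lower in all 15, with log2 fold changes of -0.53 to -0.38 and -0.98 to -0.30, the latter nearest to 0 with the microglia covariate. Of 150 single-gene values 14 had the opposite sign. Mertk was 0.008 with upper-quartile scaling, 0.004 with library totals, 0.13 with the oligodendrocyte covariate and -0.132 to 0.127 with a library left out. Itgb5 was -0.049 with the oligodendrocyte covariate and -0.145 to 0.39 with a library left out. With the microglia covariate Pros1 was -0.003, Gulp1 -0.21 and Mfge8 -0.084. With a library left out Gulp1 was -0.113 to 0.457 and Axl -0.007 to 0.167. The cause was not tested.

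The count of all genes called, 5 in the reported fit, was 111 with DESeq2, 100 with the likelihood ratio test, 3 with the microglia covariate and 3 to 13 with a library left out. The 3 was without library 6A and the 13 without library 7A. The number of the 10 genes whose groups did not overlap, reported as 2, was 3 to 7 with a library left out, since fewer libraries overlap less readily. It was 6 without saline replicate 1, 7 without saline replicate 2 and 4 without library 7A. With all libraries it was 3 under RLE (relative log expression) scaling and with DESeq2, where Itgav also lay wholly lower. The median log2 fold change of the 10 genes, reported as 0.078, was -0.075 with the microglia covariate and -0.014 to 0.079 with a library left out, the lowest without saline replicate 1. The Axl share difference was 5.56 to 8.62 points with a library left out, and the Gas6 share difference -6.67 to 2.44. No alternative scaling moved the median of all genes by over 0.016. No paired analysis was possible because the names of the DTX columns give numbers that match no sample label. Only 2 saline libraries were used, which limits every comparison, and a fit that leaves 1 of them assumes that it varies like the other group.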
